A study of Mus musculus with 45 samples.

Results

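The 10 genes described here encode the hepatic urea cycle and its link to glutamine: Nags, Cps1 and Otc of the mitochondrial steps, Ass1, Asl and Arg1 of the cytosolic steps, the mitochondrial carriers Slc25a13 and Slc25a15, and Gls2 and Glul, which break down and make glutamine. They were taken by name from 39179 genes listed in the count tables. All 10 were among the 17464 genes with more than 4 reads in at least 1 of 45 livers. At the highest dose of the dioxin TCDD (2,3,7,8-tetrachlorodibenzo-p-dioxin), 6 of the 10 were lower than in vehicle livers and 1 was higher by the test used. Of all 17464 genes, 14.1% were lower and 15.5% higher by the same test. The calls of Ass1, Slc25a13 and Glul were lost in 11, 9 and 4 of 19 alternative analyses. Among these was no scaling beyond total reads, where 7% of all genes were lower and 28.6% higher. Of the 10 genes Otc fell furthest, to 39.9% of its vehicle level, and Nags was the only one that rose.

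The urea cycle turns ammonia and bicarbonate into urea and runs at full length mainly in hepatocytes. NAGS makes N-acetylglutamate, the obligate activator of CPS1, which forms carbamoyl phosphate; OTC joins this to ornithine, and ASS1, ASL and ARG1 complete the cycle in the cytosol. In the lobule, urea cycle enzymes and the glutaminase GLS2 are concentrated around the portal tracts, whereas glutamine synthetase (GLUL) is confined to a rim of hepatocytes around the central vein and captures ammonia that escapes upstream. TCDD is the prototype ligand of the aryl hydrocarbon receptor (AhR), a transcription factor that drives genes such as Cyp1a1.

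Hepatic RNA was sequenced from female C57BL/6 mice, labelled as ovariectomized, that received by gavage, every 4 days over 28 days, either sesame oil or TCDD in sesame oil. The 8 doses were 0.01 and 0.03 μg/kg, 0.1 and 0.3 μg/kg, 1 and 3 μg/kg, and 10 and 30 μg/kg. Each of the 9 groups held 5 mice, all of the same strain and sex, with no genetic change. Dosing began shortly after weaning, so the mice were young adults at the end. Levels are given in CPM, the reads of a gene scaled to a common library total after trimmed mean of M-values (TMM) normalization, and n is 5 mice per group throughout. Whole liver was sampled, so fewer cells of a type and less RNA per cell cannot be told apart.

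Libraries held 11767284 to 56509899 reads on genes, with a median of 17225047. The 8 hepatocyte marker genes summed to 122000 to 153000 CPM in vehicle livers and 112000 to 161000 CPM at 30 μg/kg. That sum mainly follows Alb, which reached 150000 CPM before TMM scaling, whereas no other of the 8 exceeded 13300 CPM. Taken singly, 5 of the 8 fell at 30 μg/kg and none rose (2 and 1 without scaling). Of 6 kidney, gut and pancreas markers 4 were detected, and these summed to 73.5 to 116 CPM in vehicle and 92.5 to 142 CPM at 30 μg/kg, where Fabp2 rose, Cela2a fell and the other two did not pass. The kidney markers Umod and Slc34a1 were at 0 reads in 44 and 38 of 45 libraries. Cyp1a1 had a median of 5.48 CPM in vehicle and 7280 CPM at 30 μg/kg. Replicate 5 of the 0.01 μg/kg group stood apart with 69.7 CPM of Cyp1a1 and 599 CPM summed over 10 leukocyte markers, against 112 to 210 CPM in the rest of that group. Replicate 2 of the same group had 2.93 CPM of Xist, the RNA that coats the inactive X chromosome, where every other library had 1110 CPM or more. The Y-linked genes Ddx3y, Eif2s3y, Kdm5d and Uty had 0 reads in that library and in all others. In addition, 9 libraries, all from groups between 0.01 and 1 μg/kg, had more than 4 CPM of the clock gene Arntl, and no library of the vehicle, 3, 10 or 30 μg/kg groups did. Each count of calls below was repeated without these libraries. Without the 9 Arntl-high libraries the counts differed only at 10 and 30 μg/kg, where Asl was added to the calls, and without the 2 libraries at 0.01 μg/kg only at 1 μg/kg, where Otc was added, and at 30 μg/kg, where Asl was.

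Promoter sequence was found in RefSeq for 6 of the 10 genes. The 2 that changed at the lowest doses, Nags upward and Otc downward, are shown first. The third, Ass1, is shown because its window held 2 copies of GCGTG, the core to which the AhR binds. Capitals mark that core, which lies on the opposite strand and therefore reads CACGC. All 3 are on the plus strand of GRCm38.p6, 5′ to 3′, and stop at the annotated start of the gene.
Otc, chrX:10252055-10252304: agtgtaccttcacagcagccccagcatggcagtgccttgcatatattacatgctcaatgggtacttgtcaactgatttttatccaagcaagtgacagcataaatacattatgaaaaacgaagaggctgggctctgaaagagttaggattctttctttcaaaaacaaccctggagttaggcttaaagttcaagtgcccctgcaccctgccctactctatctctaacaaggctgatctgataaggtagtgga
Nags, chr11:102145263-102145512: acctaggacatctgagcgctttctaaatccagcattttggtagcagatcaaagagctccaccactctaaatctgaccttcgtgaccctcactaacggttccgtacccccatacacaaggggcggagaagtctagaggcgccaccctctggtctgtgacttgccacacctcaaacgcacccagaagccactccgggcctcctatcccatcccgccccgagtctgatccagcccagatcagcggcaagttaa
Ass1, chr2:31470020-31470206: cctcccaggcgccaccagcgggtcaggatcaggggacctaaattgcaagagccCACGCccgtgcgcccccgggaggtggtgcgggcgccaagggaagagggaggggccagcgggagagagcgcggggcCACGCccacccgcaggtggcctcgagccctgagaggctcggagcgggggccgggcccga
Neither the Otc nor the Nags window held GCGTG on either strand. Of the 250 bases before the start of each RefSeq transcript window genome-wide, 28.2% of 32851 held it. Slc25a13 and one of the windows of Slc25a15 held 1 copy each, and Glul held none. The motif TTGCNNAA, a form of the site of C/EBP factors, was in 9.56% of all windows and in none of these genes. A match describes letters only and is no measure of binding.

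Across all genes, the share with an adjusted p under 0.05 in edgeR's quasi-likelihood test against vehicle was 0% at 0.01 μg/kg, 0.0573% at 0.03, 0.0229% at 0.1, 0.464% at 0.3, 1.76% at 1, 7.54% at 3, 15.9% at 10 and 29.6% at 30 μg/kg. None of the 10 genes passed up to 0.3 μg/kg; at an unadjusted p under 0.05 the counts were 0 at 0.01, 0.03 and 0.1 μg/kg and 1 at 0.3 μg/kg (Nags). One gene passed at 1 μg/kg, 3 at 3 μg/kg, 4 at 10 μg/kg and 7 at 30 μg/kg. The median log2 difference of the 10 from vehicle was -0.48 at 30 μg/kg, where the median of all genes was 0.02. Of all genes at 30 μg/kg 15.5% rose and 14.1% fell; without scaling beyond total reads these shares were 28.6% and 7%, and the median of all genes was 0.23. A call that also asked for a 2-fold difference was met at 30 μg/kg by 11.4% of all genes and by 1 of the 10, Otc.

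**Figure D1:**
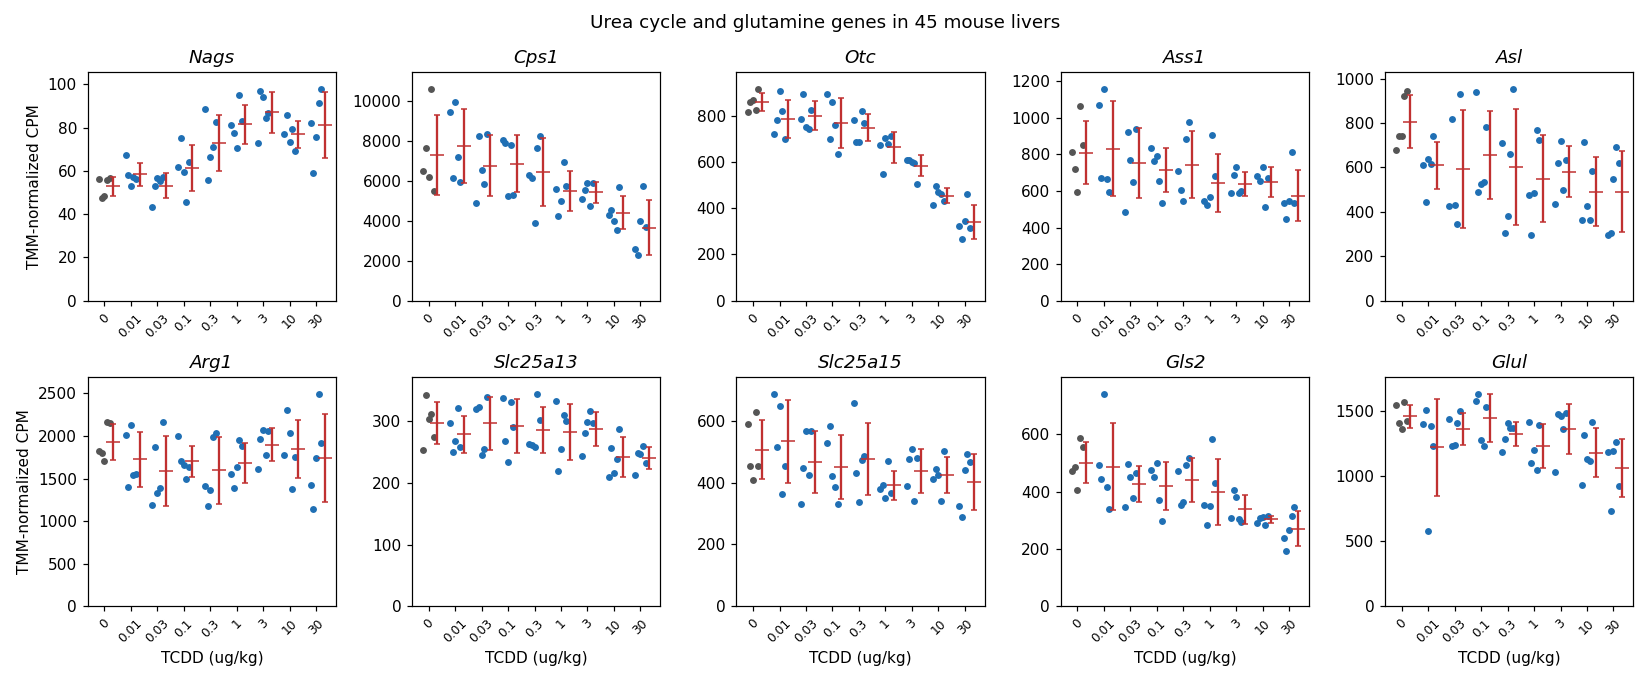
Levels of the 10 genes in each of 45 livers, as TMM-normalized CPM against the TCDD dose in μg/kg (0 is vehicle). Each dot is a mouse and red marks give the mean and SD of 5 mice; Otc steps down from a vehicle range of 819 to 917 CPM to 268 to 464 CPM at 30 μg/kg, Nags moves up, and Arg1 shows no ordered change.

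Otc, the X-linked gene of ornithine transcarbamylase (chrX:10252305-10321024, plus strand, GRCm38), was the member with the clearest decline. Vehicle livers had 819, 862, 867, 827 and 917 CPM, and livers at 30 μg/kg had 322, 268, 346, 464 and 313 CPM. The groups did not overlap and left a wide gap between them. At 1 μg/kg the 5 livers had 675, 548, 702, 679 and 714 CPM, at 3 μg/kg 608, 610, 601, 596 and 503 CPM, and at 10 μg/kg 414, 499, 469, 462 and 432 CPM. All 5 mice of each of these groups lay below all vehicle mice, and the ranges at 3 and 10 μg/kg did not overlap each other.

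The mean of Otc was 859 ± 39.1 CPM (SD, n = 5) in vehicle and 664 ± 66.6, 584 ± 45.3, 455 ± 33.2 and 343 ± 73.5 CPM at 1, 3, 10 and 30 μg/kg. On the log2 scale the difference at 30 μg/kg was -1.33 with a standard error of 0.11 (adjusted p = 3.04e-13), a 2.51-fold lower level. It passed from 3 μg/kg on (adjusted p = 0.0003 at 3 and 1.03e-08 at 10 μg/kg) and just missed at 1 μg/kg (adjusted p = 0.0521), where it passed once the 2 libraries that stood apart at 0.01 μg/kg were left out. The low-Xist library had 781 CPM of Otc, within the 700 to 907 CPM of its group.

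Cps1, the first and rate-limiting enzyme of the cycle and one of the most abundant hepatic transcripts, fell to 50.2% of its vehicle mean (chr1:67123026-67231259, plus strand). Its vehicle values were 6501, 7638, 6169, 10590 and 5485 CPM, and at 30 μg/kg they were 2596, 2271, 4001, 5709 and 3704 CPM. The groups overlapped by 1 mouse, replicate 4 at 30 μg/kg, which exceeded the lowest vehicle mouse. The log2 difference was -0.99 ± 0.21 (SE, adjusted p = 0.0003) at 30 μg/kg and passed also at 10 μg/kg (adjusted p = 0.0137), where the mean was 4403 ± 809 CPM. At 3 μg/kg the mean was 5417 ± 516 CPM and did not pass (adjusted p = 0.235). The vehicle spread was wide, with a coefficient of variation of 27.6% against 4.55% for Otc.

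Nags moved the other way (chr11:102145513-102149477, plus strand). Vehicle livers had 56.04, 47.4, 48.6, 55.6 and 56.6 CPM, livers at 1 μg/kg had 81.0, 77.7, 70.6, 95.2 and 82.9 CPM, and livers at 30 μg/kg had 82.0, 58.95, 75.9, 91.3 and 97.9 CPM. Every mouse at 1, 3, 10 and 30 μg/kg exceeded every vehicle mouse, and at 0.3 μg/kg, with 88.8, 55.7, 66.4, 71.02 and 82.5 CPM, 4 of 5 did. Group means were 52.9 ± 4.45 CPM in vehicle, 72.9 ± 13.1 at 0.3 μg/kg, 81.5 ± 8.97 at 1, 87.1 ± 9.45 at 3, 76.8 ± 6.41 at 10 and 81.2 ± 15.1 at 30 μg/kg.

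Nags thus reached its raised level by 1 μg/kg, where the fold over vehicle was 1.54 (adjusted p = 0.0014), and had nearly the same fold, 1.54, at 30 μg/kg (log2 difference 0.62 ± 0.12 SE, adjusted p = 0.0001). At 0.3 μg/kg the adjusted p was 0.0750, and it passed there with replicate 2 of that group left out. Of its exons, 443 of 2838 bases lie over the antisense gene Gm11586, and the strand setting of the counting is not given in the sources used here. Gm11586 had 1.21 to 2.17 CPM in 4 of the 5 vehicle livers and 0.801 CPM in the other.

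Among the cytosolic steps the differences at 30 μg/kg were smaller than those of Otc and Cps1, and the results for Ass1 and Asl less stable. At 10 μg/kg, however, the log2 difference of Asl (-0.716 ± 0.285 SE) was close to that of Cps1 (-0.725 ± 0.210 SE). Differences between these genes were not tested. Ass1, which joins citrulline and aspartate (chr2:31470207-31520672, plus strand), had 813, 722, 597, 1067 and 853 CPM in vehicle livers and 534, 445, 546, 815 and 534 CPM at 30 μg/kg. At 30 μg/kg 4 of 5 mice lay below all vehicle mice and replicate 4 lay among the upper vehicle values. The log2 difference was -0.50 ± 0.19 (SE, adjusted p = 0.0481), and it no longer passed in 11 of 19 alternatives. Among these were leaving out vehicle replicate 1, 2, 4 or 5 or replicate 1, 2, 3 or 5 at 30 μg/kg (adjusted p of 0.0520 to 0.165). Another was no scaling (log2 difference -0.29). With adjustment over all genes and doses together it did not pass either.

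The value of Ass1 also depends on Gm5424, a gene that shares part of its sequence. Of all 50-base stretches of the Ass1 transcripts, the length of the reads, 38.6% also occur in Gm5424, so reads could be split between them. Gm5424 had more reads than Ass1, with 2157, 2178, 1513, 3081 and 1891 CPM in vehicle livers and 1375, 1250, 1475, 2221 and 1890 CPM at 30 μg/kg. With both summed, the mean was 2974 ± 739 CPM in vehicle and 2217 ± 529 CPM at 30 μg/kg, and the log2 difference of -0.42 did not pass (adjusted p = 0.0977).

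Asl, which releases arginine and fumarate (chr5:130011258-130029247, minus strand), had 680, 740, 743, 920 and 944 CPM in vehicle livers and 294, 303, 547, 690 and 619 CPM at 30 μg/kg, so that 4 of 5 treated mice lay below every vehicle mouse. Its log2 difference of -0.72 (adjusted p = 0.0531) missed the threshold and was within it without replicate 4 or replicate 5 at 30 μg/kg (adjusted p = 0.0248 and 0.0463) and without the 2 libraries that stood apart at 0.01 μg/kg (0.0476) or the 9 Arntl-high libraries (0.0258). It also passed with only the 2 groups in the fit (0.0182) and in the DESeq2 Wald test (0.0423). Asl was variable at low doses too, from 346 to 932 CPM within the 0.03 μg/kg group.

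Arg1, which splits arginine into urea and ornithine (chr10:24915221-24927484, minus strand), gave no call at any dose. It had 1825, 1796, 1707, 2168 and 2152 CPM in vehicle and 1424, 1139, 1742, 2490 and 1919 CPM at 30 μg/kg, a range that enclosed all vehicle mice. The log2 difference was -0.15 (adjusted p = 0.560), and its sign turned without scaling (0.049).

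The log2 ratio of Otc to Arg1 within each liver, which does not depend on scaling between libraries, ran from -1.39 to -0.98 in vehicle and from -2.62 to -2.09 at 30 μg/kg, with no overlap. Likewise the log2 ratio of Nags to Cps1 ran from -7.57 to -6.60 in vehicle and from -5.97 to -4.98 at 30 μg/kg. These ratios compare reads that are not corrected for gene length, and only their differences between groups are of use. Otc was thus lower relative to Arg1, and Cps1 relative to Nags, in every liver of the top dose than in any vehicle liver.

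The 2 carriers changed little. Slc25a13 encodes citrin, the aspartate and glutamate carrier that supplies aspartate to ASS1 (chr6:6041218-6217173, minus strand), and it averaged 297 ± 34.4 CPM in vehicle, 242 ± 31.9 at 10 μg/kg and 240.3 ± 17.9 at 30 μg/kg. Individual livers had 253, 343, 303, 311 and 275 CPM in vehicle and 213, 249, 248, 259 and 233 CPM at 30 μg/kg, where 4 of 5 mice were below all vehicle mice. The log2 difference was -0.31 ± 0.12 (SE, adjusted p = 0.0426), and the call was lost in 9 of 19 alternatives. Among these were leaving out vehicle replicate 2, 3 or 4 or replicate 1, 2, 3 or 5 at 30 μg/kg (adjusted p of 0.0520 to 0.144). Another was no scaling (log2 difference -0.09). With adjustment over all genes and doses together Slc25a13 did not pass either.

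Slc25a15, the ornithine and citrulline exchanger (chr8:22375551-22398597, minus strand), had 592, 455, 409, 628 and 455 CPM in vehicle and 326, 289, 442, 492 and 469 CPM at 30 μg/kg. The ranges overlapped, and the log2 difference of -0.33 did not pass (adjusted p = 0.167). Its lowest mean, 391 ± 46.4 CPM, was at 1 μg/kg and not at the top dose.

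Gls2, the liver glutaminase that releases ammonia next to CPS1 (chr10:128194457-128210004, plus strand), fell almost as far as Cps1. Vehicle livers had 473, 485, 405, 587 and 555 CPM, livers at 3 μg/kg had 307, 405, 381, 306 and 293 CPM, and livers at 30 μg/kg had 237, 192, 266, 315 and 347 CPM. All mice at 3, 10 and 30 μg/kg lay below all vehicle mice, though at 3 μg/kg by a narrow margin (404.8 against 405.3 CPM). The mean went from 501 ± 71.6 CPM in vehicle to 338 ± 50.7 at 3 μg/kg, 303 ± 13.9 at 10 μg/kg and 271 ± 61.6 at 30 μg/kg. Log2 differences were -0.57 (adjusted p = 0.0393), -0.73 (adjusted p = 0.0030) and -0.89 ± 0.18 (SE, adjusted p = 0.0001).

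Glul, the pericentral glutamine synthetase (chr1:153899944-153909723, plus strand), passed only at the top dose. Vehicle livers had 1546, 1412, 1365, 1569 and 1427 CPM and livers at 30 μg/kg had 1185, 736, 1197, 1266 and 928 CPM, without overlap. The log2 difference was -0.46 ± 0.16 (SE, adjusted p = 0.0227) and was lost without vehicle replicate 4 (adjusted p = 0.05004), replicate 2 at 30 μg/kg (0.0910) or replicate 5 at 30 μg/kg (0.0636), and without scaling (0.198). With adjustment over all genes and doses together Glul did not pass either. The pseudogene-like Glns-ps1 shares 9.46% of the 50-base stretches of Glul and had 48.4 to 82.8 CPM in vehicle; with its reads added, Glul still passed (adjusted p = 0.0278).

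One liver at 0.01 μg/kg, replicate 3, had 582 CPM of Glul against 1232 to 1512 CPM in the rest of its group. The same liver had the highest Gls2 of all 45, 740 CPM, and within its group the lowest Slc1a2, a pericentral glutamate transporter, at 258 CPM against 370 to 460 CPM, and the highest Hal, the periportal histidine ammonia-lyase, at 1198 CPM against 360 to 804 CPM. Its log2 ratio of Glul to Gls2 was -0.35, whereas vehicle livers ran from 1.36 to 1.75. The part of the sampled region in these values was not tested.

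**Figure D2:**
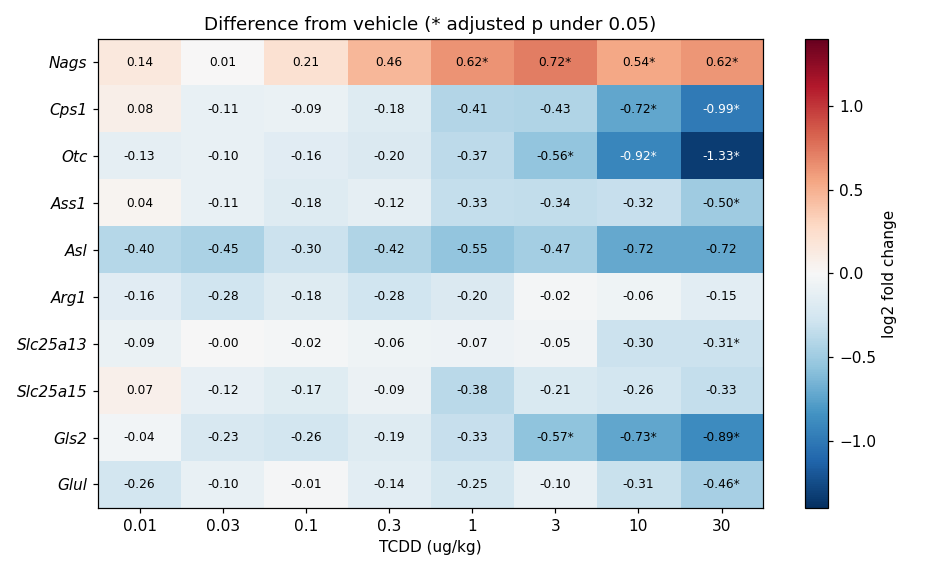
Log2 difference from vehicle of the 10 genes (rows) at each TCDD dose in μg/kg (columns), from the fit over 45 livers; an asterisk marks an adjusted p under 0.05. Calls begin with Nags at 1 μg/kg, and at 30 μg/kg 7 of 10 cells carry one, from -1.33 for Otc to 0.62 for Nags. Of all genes, 29.6% had a call at that dose.

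By group, 4 of the 10 genes at 30 μg/kg had ranges that did not overlap with vehicle (Otc, Gls2 and Glul below, Nags above), and 3 did at 10 μg/kg (Otc, Gls2 and Nags); over all genes these shares were 19.9% and 14.2%. In the exact permutation test of the 10 genes at 30 μg/kg (two-sided, 5 against 5 mice), those 4 had the smallest p the design allows, 0.0079. Ranges that do not overlap fix that p, so for these genes it adds nothing to the separation itself. Cps1, Asl and Slc25a13 had an exact p of 0.0159, Ass1 0.0556, Slc25a15 0.143 and Arg1 0.389.

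No gene of the 10 passed between successive doses. All-gene shares for these steps were 0% from 0.01 to 0.03 μg/kg, 0.0115% from 0.03 to 0.1, 0.0458% from 0.1 to 0.3, 0.115% from 0.3 to 1, 0.178% from 1 to 3, 0.784% from 3 to 10 and 0.613% from 10 to 30 μg/kg. The nearest was at the last step, with an adjusted p of 0.0509, and at an unadjusted p under 0.05 the 7 steps held 0, 0, 1, 0, 0, 2 and 1 of the 10 genes. A slope over dose rank passed in 9 of 10 genes, against 40.5% of all genes: it was positive for Nags, negative for 8 genes, and not past the test for Arg1 (adjusted p = 0.907). The steepest was that of Otc (adjusted p = 5.41e-12). Without scaling beyond total reads, 5 genes kept a call on the slope: Nags, Cps1, Otc, Ass1 and Gls2.

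Summed, the transcripts of Cps1, Otc, Ass1, Asl and Arg1 made up 1.17% ± 0.227 (SD, n = 5) of TMM-scaled reads in vehicle livers and 0.681% ± 0.223 at 30 μg/kg, with ranges of 1.01% to 1.56% and 0.443% to 1.02% that overlapped only through the highest liver of the top dose. Per kilobase of exon, the order in vehicle was Cps1 (1310 ± 362 CPM per kb), Arg1 (866), Glul (441), Ass1 (336), Otc (202), Asl (167), Gls2 (144), Slc25a15 (90.2), Slc25a13 (78.2) and Nags (18.6). The place of Ass1 leaves out the reads of Gm5424, which exceeded its own. Neighbours in that order whose ranges over 5 mice overlapped were Glul and Ass1, Otc and Asl, Asl and Gls2, and Slc25a15 and Slc25a13. At 30 μg/kg Arg1 came first in all 5 livers (782 ± 231 CPM per kb, against 658 ± 244 for Cps1), the mean of Otc was below that of Asl, and ranges overlapped between Arg1 and Cps1 and between Glul and Ass1, while those of Asl, Otc, Gls2, Slc25a15 and Slc25a13 overlapped from each to the next. Nags remained the lowest, at 28.6 ± 5.30 CPM per kb.

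Within dose groups some of the genes also varied together from mouse to mouse, and the pairs with the highest r are given first. With each group's mean removed from log2 CPM, Pearson's r over 45 livers, a description of libraries that share scaling, was 0.85 for Ass1 and Gls2, 0.82 for Ass1 and Arg1, 0.81 for Asl and Arg1, and 0.79 for Cps1 and Ass1. Glul went with none of them, with r from -0.18 against Gls2 to 0.33 against Nags. Slc25a13 had r of 0.21 with Ass1, 0.20 with Gls2 and 0.016 with Slc25a15, but 0.57 with Asl and 0.51 with Cps1. Nags, which rose across doses while Otc fell (r = -0.52 over all 45 livers), had r of 0.19 with Otc once group means were removed.

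**Figure D3:**
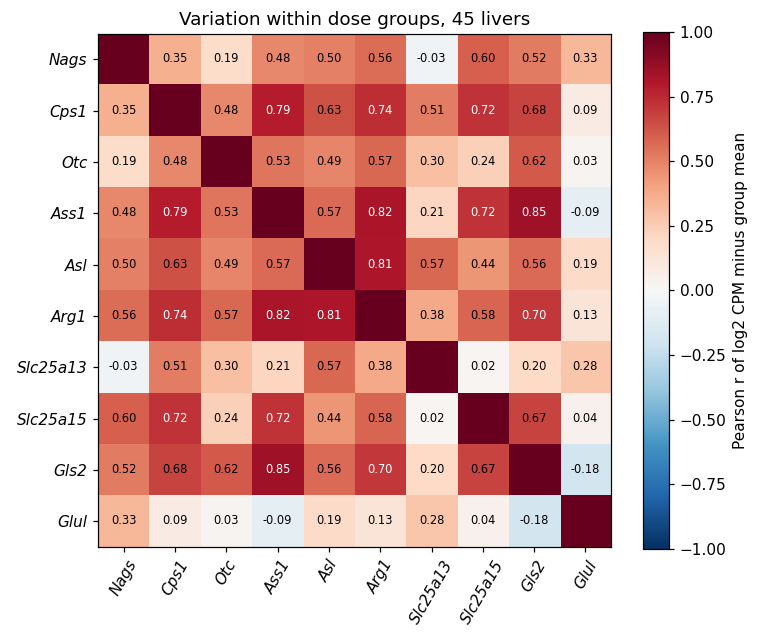
Pearson's r between the 10 genes over 45 livers after each dose group's mean of log2 CPM was subtracted, on a colour scale from -1 to 1. Cps1, Ass1, Asl, Arg1 and Gls2 form a block with r between 0.565 and 0.849 within it, whereas the row of Glul stays between -0.18 and 0.33. Against the genes of that block, Slc25a15 had r from 0.439 (Asl) to 0.725 (Ass1).

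Replicate 4 at 30 μg/kg had the highest Cps1, Otc, Ass1, Asl and Arg1 of its group, with 5709, 464, 815, 690 and 2490 CPM, and it also had the highest Cyp1a1, 9060 CPM, and the lowest sum of leukocyte markers, 123 CPM. Replicate 2 of that group had the lowest Cps1, Otc, Ass1, Arg1, Gls2, Glul and Nags and the highest sum of leukocyte markers, 316 CPM. Replicate 5 had a nearly equal sum, 312 CPM, but the highest Gls2 and Nags of the group, 347 and 97.9 CPM. Its Otc and Glul, 313 and 928 CPM, were below the group means of 343 and 1062 CPM. The part of leukocytes in these values was not tested. Some of the variation within groups went with clock genes: r with Per2 was 0.73 for Asl and 0.62 for Slc25a13, and r with Arntl was 0.62 for Slc25a15 and -0.51 for Slc25a13 (45 livers, group means removed). For Otc these were 0.29 and -0.24 and for Cps1 0.21 and 0.10. The part of sampling time in these values was not tested.

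Genes most like each member over 45 livers were sought among 7710 genes with a mean of at least 10 CPM. The r given includes differences between dose groups. With group means removed it was 0.72, 0.76 and 0.60 for the genes most like Otc. For those most like Nags it was 0.63, 0.53 and 0.63, whereas for Asl and its nearest gene it stayed at 0.92. Otc was most like Car8, Aadac and Shmt1 (r = 0.97, 0.97 and 0.95); Shmt1 is the cytosolic serine hydroxymethyltransferase. Cps1 was most like Aass, Hgd and Uroc1 (0.93, 0.87 and 0.85), which act in lysine, tyrosine and histidine breakdown, and Gls2 was most like Uroc1, Hgd and Aass (0.95, 0.92 and 0.90). Nags was most like Ldhd, Plod1 and Tmem86b (0.87, 0.86 and 0.83), all of which had a higher mean at 30 μg/kg than in vehicle (195.0 against 118 CPM for Ldhd).

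Ass1 was most like Gm5424, Gls2 and Cps1 (0.93, 0.83 and 0.80), the first of which shares its sequence. Asl was most like Fh1, the fumarase that takes up the fumarate ASL makes, Gm16573 and Slc25a51 (0.92, 0.91 and 0.87). Arg1 was nearest to Nnmt, Etnk2 and Pfkfb1 (0.82, 0.77 and 0.77), Slc25a13 to Man2a1, Ptgr2 and Pcyt1a (0.86, 0.86 and 0.86), and Slc25a15 to Acmsd, Gm5424 and Gldc (0.88, 0.78 and 0.78). Glul was nearest to Glns-ps1, Nxpe2 and Cyp2d40 (0.78, 0.78 and 0.72).

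Genes that feed the cycle were lower in part. Counts of this and the following lists at 30 μg/kg stand beside 14.1% of all genes that fell and 15.5% that rose. Without scaling these shares were 7% and 28.6%. Of 18 tested genes for the supply of ammonia, glutamate and bicarbonate, 8 fell, 3 rose and 7 did not pass at 30 μg/kg, with a median log2 difference of -0.28; without scaling 6 fell and 4 rose. The largest were Slc7a2, a cationic amino acid transporter (1432 ± 278 to 718 ± 81.4 CPM, log2 difference -0.99), Gpt2, an alanine aminotransferase (-0.96), Slc38a3, the glutamine carrier SNAT3 (-0.88), and Slc1a2, which rose from 454 ± 44.1 to 858 ± 222 CPM (0.92). At 10 μg/kg 5 of these genes fell and 1 rose, where 7.47% of all genes fell and 8.47% rose.

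Of 28 genes of amino acid breakdown 14 fell at 30 μg/kg, none rose, and the median log2 difference was -0.43; without scaling 9 fell and none rose. Hal went from 628 ± 108 to 304 ± 50.6 CPM (-1.05), Amdhd1 of histidine breakdown from 231 ± 22.3 to 114 ± 8.83 CPM (-1.01), and Sds, serine dehydratase, from 400.1 ± 62.5 to 211 ± 82.1 CPM (-0.92). At 3 μg/kg 5 of the 28 had fallen and at 10 μg/kg 8 had, against 3.2% and 7.47% of all genes.

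Of 15 genes that use arginine or its products, 4 fell, 2 rose and 9 did not pass at 30 μg/kg, and without scaling 4 fell and 4 rose. Azin1, which holds back the decay of ornithine decarboxylase, fell by 0.96 on the log2 scale, Agmat, agmatinase, by 0.88, and Gamt of creatine synthesis by 0.86. Nos2, the inducible nitric oxide synthase, had 0 reads in all vehicle livers and 15 reads in all at 30 μg/kg (1 to 7 per liver), at least 4.85-fold higher against a floor of 3 reads over the group. The median of the list was 0.18, also with Nos2 at that bound.

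Of 14 genes listed as regulators of urea cycle genes or their enzymes, 6 fell, none rose and 8 did not pass at 30 μg/kg, whereas without scaling 3 fell and 2 rose. Cebpa, a hepatocyte transcription factor needed for several of these enzymes, went from 235 ± 41.3 to 126 ± 17.5 CPM (-0.90, adjusted p = 1.90e-05). Ppargc1a, a coactivator of the fasting response, fell by 0.77, the glucocorticoid receptor Nr3c1 by 0.54 and the glucagon receptor Gcgr by 0.44 on the log2 scale. Glucocorticoids and glucagon are known inducers of urea cycle genes in liver.

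Genes zoned like the members did not move as a block. Of 10 other periportal genes at 30 μg/kg, 4 rose, 3 fell and 3 did not pass: Cdh1, E-cadherin, went from 25.9 ± 2.97 to 57.4 ± 12.3 CPM, Etnppl rose by 0.98 on the log2 scale, and Hal and Sds fell as given. Of 9 other pericentral genes 4 rose, 3 fell and 2 did not pass; Lect2 fell by 1.61 and Rgn by 1.03, whereas Slc1a2 rose as given and Tbx3 by 0.66. The median log2 differences of these lists were 0.23 and -0.04, and 0.45 and 0.16 without scaling.

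**Figure D4:**
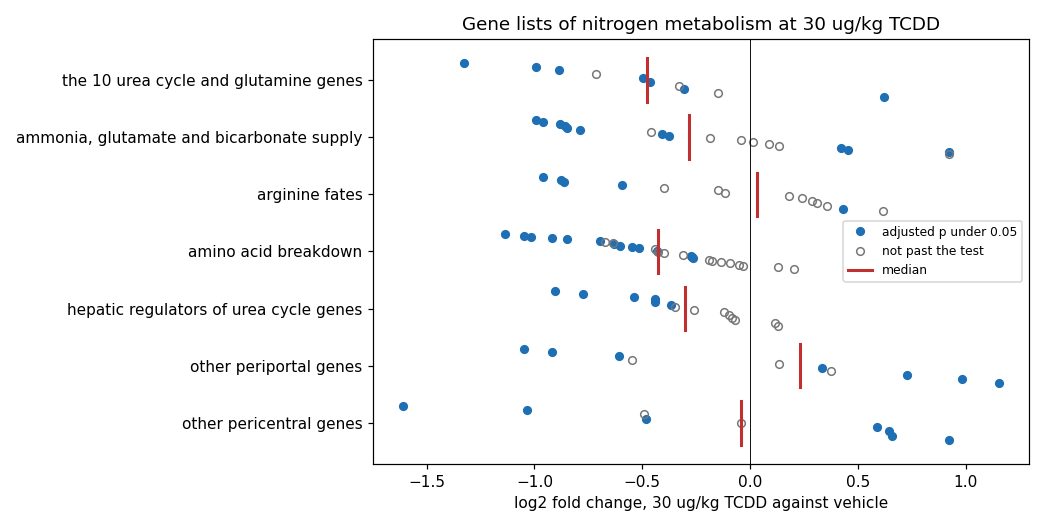
Log2 difference at 30 μg/kg TCDD against vehicle for each gene (dots) of the 10 urea cycle and glutamine genes and of 6 related lists; filled dots have an adjusted p under 0.05 and red bars are list medians (Nos2, at 0 in vehicle, is left out). All 14 called genes of amino acid breakdown lie below 0, whereas called periportal and pericentral genes lie on both sides.

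Markers of other cell types were higher in part at the top dose, where 15.5% of all genes rose and 14.1% fell. Summed leukocyte markers (10 genes) ran from 113 to 188 CPM in vehicle and from 123 to 316 CPM at 30 μg/kg, with 5 of 10 called up and none down; endothelial markers (5 genes) ran from 121 to 161 and from 147 to 243 CPM, with 4 called up; and stellate cell and fibroblast markers (6 genes) from 70.4 to 108 and from 98.8 to 235 CPM, with 2 called up, Col1a1 by 2.41 and Col3a1 by 1.31. Without scaling 7 of the 10, 5 of the 5 and 5 of the 6 rose, against 28.6% of all genes. None of 5 cholangiocyte markers passed. Among leukocyte markers Cd3e, Cd79a and S100a8 were at 0 in 1, 2 and 1 libraries. Of 8 hepatocyte markers 5 fell and none rose, with a median log2 difference of -0.46, and Apoa1 fell by 1.67; without scaling 2 fell and 1 rose. In the same libraries 6 of the 10 urea cycle and glutamine genes fell, 1 (Nags) rose and the rest did not pass. The part of these markers in the levels of the urea cycle genes was not tested.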

How the data were processed

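Liver RNA-Seq of 45 mice was analysed from the gene count tables the authors deposited. The authors made 1 × 50 base reads, trimmed and mapped them to GRCm38 with TopHat 1.4.1, allowing introns up to 15000 bases, and counted reads per gene with HTSeq 0.6.1 in intersection-nonempty mode; the deposited counts are whole and not normalized. The intron limit leaves out junction reads of 7 introns of Slc25a13 and 1 each of Otc and Cps1, alike in all groups. Reads assigned to no gene (9.11 to 17.1% of counted reads) or to several (1.34 to 2.07%) were left out of library sizes. No 2 libraries of a group were alike within sampling noise.

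Genes with more than 4 reads in any library were kept, scaled by TMM and fitted over all 45 livers by edgeR 4.0.16 (quasi-likelihood test, R 4.3.3, 1 coefficient per group), with Benjamini-Hochberg adjustment over 17464 genes within each comparison and a threshold of 0.05. The authors' own test was an empirical Bayes posterior probability, not used here. The slope used dose rank over the 9 groups. CPM per kb used merged exons of GENCODE M21. DESeq2 1.42.0, other scalings and filters, and leaving out each mouse were alternatives. The fit was tested on simulated data. The exact permutation test was run for 30 μg/kg. The members and gene lists were chosen with earlier results of these data known. Genes named were the 10 members, up to 4 genes per list with the largest log2 difference at 30 μg/kg among those past the threshold, and the 3 genes most like each member. A gene that this rule names is not reported here. Libraries that stood apart, their genes, the ratios, Gm11586 and Alb were chosen after values were seen. Replicate numbers follow accession order and only name mice. With 5 mice per group, values give mean ± SD and depth limits only low genes; Nags had the fewest reads.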

Additional observations from a re-analysis of the deposited data

Results flagged for a closer look

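In each of 90 groups of 5 mice (10 genes in 9 groups) the highest and the lowest mouse were compared with the rest by Dixon's ratio at a critical value of 0.71; 4 groups held a mouse apart, and chance alone gives about 1 in 20. Otc had 548.1 CPM in replicate 2 at 1 μg/kg, against 674.5 to 713.8 CPM in the rest of the group, and 503.2 CPM in replicate 5 at 3 μg/kg, against 595.5 to 610.3 CPM. Ass1 had 814.7 CPM in replicate 4 at 30 μg/kg, against 445.1 to 545.6 CPM. Glul had 1030 CPM in replicate 1 at 3 μg/kg, against 1363 to 1489 CPM. The low Otc mouse at 1 μg/kg is 1 of the 9 libraries with more than 4 CPM of Arntl, and Otc at that dose did not pass with it (adjusted p = 0.0521) or without it.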

How the results depend on the processing

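Calls for Otc, Cps1, Gls2 and Nags at 30 μg/kg held under every alternative except the 2-fold limit, which only Otc met; log2 differences ran from -1.46 to -1.12, -1.21 to -0.80, -0.99 to -0.68 and 0.54 to 0.82. At 30 μg/kg 7 genes passed; 4 did with no scaling beyond total reads, where the median of all genes was 0.232, or with adjustment over all genes and doses together, 1 did with a 2-fold limit, and 4 to 8 did when 1 mouse was left out (4 without vehicle replicate 4 or without replicate 2 at 30 μg/kg: Nags, Cps1, Otc and Gls2). Without scaling the log2 difference of Arg1 turned to 0.049 (adjusted p = 0.835). With a 2-fold limit the counts at 1, 3 and 10 μg/kg were 0. At 1 μg/kg 2 genes, Nags and Otc, passed with DESeq2 size factors, with a mean of at least 10 reads, with only the 2 groups in the fit, with the DESeq2 Wald test, with adjustment over all doses and, chosen after seeing the data, without the 2 libraries at 0.01 μg/kg. At 0.3 μg/kg 1 gene, Nags, passed with no scaling, with the DESeq2 Wald test, with adjustment over all doses and without replicate 2 of that group (range when a mouse was left out, 0 to 1). Trend calls fell from 9 to 5 with no scaling. Among counts of the 10 genes no other moved by over 1.5 times. Without scaling, counts of related lists at 30 μg/kg moved by more: amino acid breakdown fell in 9 and not 14 genes, regulators fell in 3 and not 6 and rose in 2 and not 0, hepatocyte markers fell in 2 and not 5 and rose in 1 and not 0, and arginine genes rose in 4 and not 2 and stellate markers in 5 and not 2. The cause was not tested. Leaving out the 9 Arntl-high libraries and adding the reads of Gm5424 and Glns-ps1 were also chosen after seeing the data. No paired analysis was possible because the labels give no replicate numbers.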
